A study of Mus musculus with 23 samples.

Results

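Of 9 adipocyte genes measured in the aorta of ApoE-/- mice, 7 were lower after 12 weeks of chronic intermittent hypoxia (CIH) than after 12 weeks of normoxia, before adjustment for the number of probe sets tested. Of all probe sets, 6.99% were called as lower in that comparison. None of the 7 genes passed an adjusted p of 0.05, and the moderated F-test named in the study's methods kept only Pparg and Pnpla2 of them. A list of 10 genes that mark fat cells or encode the hormones they secrete was described across 5 exposure groups and 23 arrays: Adipoq, Lep, Retn, Pparg, Plin1, Pnpla2, Lipe, Fabp4, Aqp7 and Cfd. Each gene was read from 1 probe set, the brightest of those annotated with its symbol and no other. Of the 10 genes, 9 had such a probe set, 1 probe set each, and Cfd was not analysed here. They were read against all 65956 gene-level probe sets of the array.

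All mice were ApoE-/- on the C57BL/6J strain, a model that develops atherosclerosis because lipoprotein clearance is impaired, and all received high-fat feed. The study's methods describe male mice, 8 weeks old when obtained and randomly divided into groups, with inspired oxygen lowered and restored in repeated cycles during the daily CIH period. The groups were CIH for 8 weeks (CIH 8W, 5 arrays), normoxia for 8 weeks (Nor 8W, 5 arrays), CIH for 12 weeks (CIH 12W, 4 arrays), CIH for 8 weeks and then normoxia for 4 weeks (CIH 8W+Nor 4W, 4 arrays), and normoxia for 12 weeks (Nor 12W, 5 arrays). The labels call the arrays of a group biological replicates and name the tissue as aorta, without saying how much of the surrounding fat was kept. Total RNA was measured on the Affymetrix Clariom D mouse array, and the values are log2 signals, on which 1 unit is a factor of 2.

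White adipocytes store triglyceride in a single large droplet, release fatty acids and glycerol from it by lipolysis, and secrete adipokines into the blood. Brown adipocytes burn fatty acids for heat through the uncoupling protein Ucp1, and the fat around the mouse thoracic aorta is largely of the brown kind. The nuclear receptor Pparg directs adipocyte formation and, with C/EBP factors, the transcription of most of the other genes described here.

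The sequences just before the annotated start of 4 of the genes, the 3 adipokines and Pnpla2, are shown as examples. Whether their letters bear on the signals was not tested. Each is the 250 bases before the start of the gene in the RefSeq annotation of GRCm38.p6, written 5′ to 3′ on the strand of the gene, with matches to the searched motifs in capitals. The Adipoq gene is at chr16:23146536-23157968 and its window at chr16:23146286-23146535. Lep is at chr6:29060221-29073876 with its window at chr6:29059971-29060220, and Retn at chr8:3655770-3659818 with its window at chr8:3655520-3655769. The Pnpla2 window is chr7:141454938-141455187, and all 4 genes are on the plus strand.
Adipoq: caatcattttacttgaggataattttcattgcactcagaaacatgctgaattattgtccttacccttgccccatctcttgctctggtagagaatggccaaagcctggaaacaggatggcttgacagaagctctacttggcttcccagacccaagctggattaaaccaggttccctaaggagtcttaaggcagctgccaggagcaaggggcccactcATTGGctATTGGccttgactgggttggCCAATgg
Lep: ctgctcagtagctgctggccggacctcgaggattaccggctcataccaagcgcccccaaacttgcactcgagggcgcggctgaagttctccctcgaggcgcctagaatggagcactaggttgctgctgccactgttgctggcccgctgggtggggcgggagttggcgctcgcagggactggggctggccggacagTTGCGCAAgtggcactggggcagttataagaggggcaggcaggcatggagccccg
Retn: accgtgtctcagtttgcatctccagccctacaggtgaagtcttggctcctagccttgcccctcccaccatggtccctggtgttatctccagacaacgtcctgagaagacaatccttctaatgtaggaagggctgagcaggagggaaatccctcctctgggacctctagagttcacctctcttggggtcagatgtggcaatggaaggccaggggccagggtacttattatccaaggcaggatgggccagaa
Pnpla2: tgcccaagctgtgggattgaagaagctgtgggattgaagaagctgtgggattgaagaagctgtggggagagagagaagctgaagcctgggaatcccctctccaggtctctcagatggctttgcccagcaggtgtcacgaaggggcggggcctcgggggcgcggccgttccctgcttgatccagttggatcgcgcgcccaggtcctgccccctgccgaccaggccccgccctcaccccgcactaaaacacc
The motifs, searched on both strands, were the element bound by PPAR with its partner RXR, which repeats AGGTCA in the same direction after 1 base and was found before 0.0335% of 32851 annotated starts, the single AGGTCA that the element contains (14.0%), the C/EBP motif TTGCNNAA (9.56%), the TATA box TATAAA (12.4%) and the CCAAT box (33.8%). The Adipoq window held 3 CCAAT matches, beginning 34, 27 and 7 bases before the start, the first 2 of them on the minus strand. The Lep window held 1 C/EBP match, 55 bases before the start, which reads the same on both strands. The Retn and Pnpla2 windows held no match to these letters. Among the windows searched but not shown, that of Plin1 held 2 C/EBP matches and those of Lipe held no match. Windows of Pparg and Aqp7 held the single AGGTCA, and those of Pparg also other matches.

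The arrays carried the aortic wall and a variable amount of other tissue. Smooth muscle markers averaged 15.95 to 17.41 over the 23 arrays, with all 6 above background on every array. The array medians lay between 3.63 and 3.78, and 27.3 to 35.9% of probe sets exceeded the 95th percentile of each array's 23 background probe sets, the level taken here as background. Sympathetic neuron markers stood at 8.21 to 13.86 on 5 arrays (CIH 8W replicates 3 and 5, Nor 8W replicate 3 and Nor 12W replicates 3 and 4), so results were also computed without these. Of the 9 genes, 8 were above background on all 23 arrays, and Lep on 3.

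A gene was called as changed, following the thresholds of the study's methods, at limma p under 0.05 with a fold change over 1.1. That p is not adjusted for the number of probe sets, so the Benjamini-Hochberg adjusted p over all probe sets is given beside each call, and none of the 9 genes passed an adjusted p of 0.05 in any comparison. Of all probe sets, the share that passed it was 0% between CIH 8W and Nor 8W, 0.89% between CIH 12W and Nor 12W, 0.0182% between CIH 12W and CIH 8W+Nor 4W, 0.3% between CIH 8W+Nor 4W and Nor 12W, 0.044% between Nor 12W and Nor 8W and 1.04% between CIH 12W and CIH 8W. Fewer adipocytes in a sample and less of an RNA per adipocyte cannot be told apart in whole aorta.

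After 12 weeks, CIH 12W aortas had lower signals than Nor 12W aortas in 7 of the 9 genes, namely Pparg, Aqp7, Lipe, Fabp4, Pnpla2, Plin1 and Adipoq, with log2 differences of -0.91 to -1.63. Lep and Retn were not called. Over all probe sets 6.99% were called as lower in this comparison. The median log2 difference of the 9 genes was -1.07, against -0.0279 over all probe sets. In a fit of the 23452 probe sets above background on at least 4 arrays, 1957 were called as lower, with a median of -0.00677. In 3 genes, Pparg, Lipe and Aqp7, every CIH 12W array lay below every Nor 12W array, as did 3.2% of all probe sets. The study's methods name the moderated F-statistic as the filter on genes over several groups. By that test, which gives each gene 1 p over all 5 groups, with the same fold change, only 2 of the 7 genes were called as lower in CIH 12W than in Nor 12W, Pparg (adjusted p = 0.367 in limma) and Pnpla2 (adjusted p = 0.298), where 5.29% of all probe sets were. Aqp7, Lipe, Fabp4, Plin1 and Adipoq lost the call (adjusted p of 0.385 to 0.668).
After 8 weeks none of the 9 was called by limma in CIH 8W compared with Nor 8W, and 0 of the 9 had an unadjusted p under 0.05 there, while 6.45% of all probe sets were called in either direction.

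**Figure D1:**
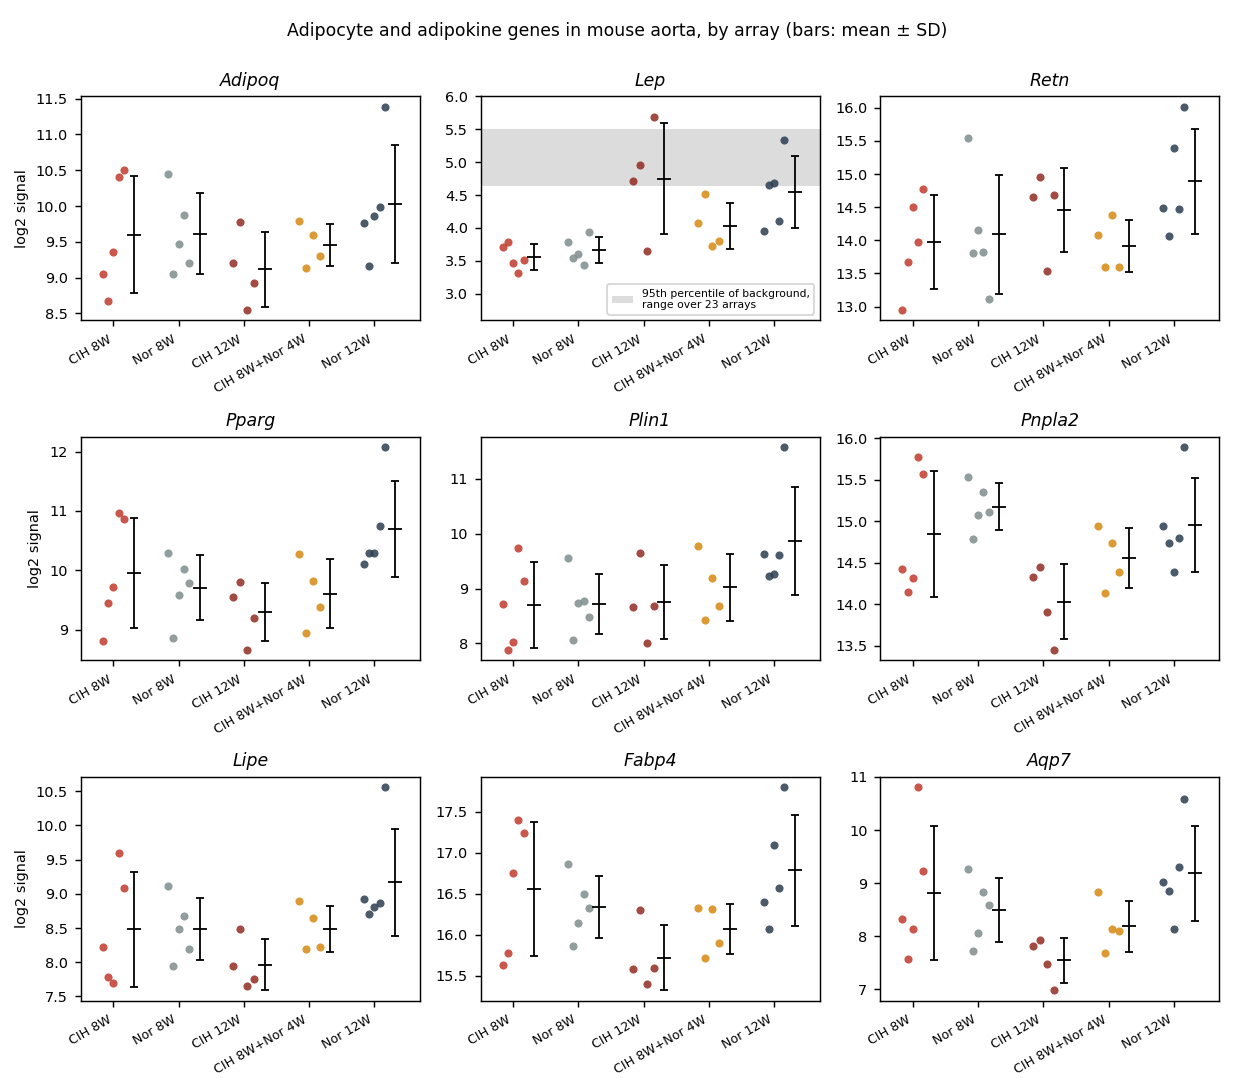
Log2 signal of each gene by array (points) in the 5 groups, with the mean and SD beside each group; the grey band for Lep is the range of the background level over the 23 arrays. In Pparg, Lipe and Aqp7 the 4 CIH 12W arrays sit below the 5 Nor 12W arrays, and all but 3 Lep points lie at or under their own array's background.

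Adiponectin, encoded by Adipoq, is a hormone that only adipocytes make in quantity and that raises insulin sensitivity. Adipoq had signals of 9.21, 9.78, 8.55 and 8.92 in CIH 12W aortas, against 9.76, 9.16, 9.86, 9.98 and 11.39 in Nor 12W aortas. The groups overlapped, and the highest Nor 12W array, replicate 5, stood well above the other 4. The mean was 9.11 ± 0.52 in CIH 12W and 10.03 ± 0.83 in Nor 12W, a log2 difference of -0.91 (SE 0.42, 95% confidence interval -1.78 to -0.05, adjusted p = 0.389), or 1.88-fold lower. The call was lost without Nor 12W replicate 5 (-0.57) and also without Nor 12W replicate 4 or CIH 12W replicates 1, 3 or 4. The CIH 8W+Nor 4W arrays were the most alike, at 9.79, 9.14, 9.59 and 9.3.
At 8 weeks Adipoq had 9.05, 8.68, 9.36, 10.4 and 10.5 in CIH 8W, against 10.45, 9.05, 9.47, 9.88 and 9.2 in Nor 8W. CIH 8W fell into 3 low and 2 high arrays that spanned the whole Nor 8W range. The difference was -0.01, with a 95% confidence interval of -0.83 to 0.81.

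Leptin, the product of Lep, is the satiety hormone that white adipocytes release in proportion to their fat stores. Its probe set was not well above background. Lep signals were 4.72, 4.95, 3.65 and 5.68 in CIH 12W, against 3.96, 4.65, 4.68, 4.11 and 5.33 in Nor 12W. Only 2 of the CIH 12W arrays and 1 of the Nor 12W arrays exceeded background, and the groups overlapped fully. The CIH 8W+Nor 4W arrays had 4.07, 4.51, 3.73 and 3.8.
At 8 weeks all arrays were at or below background, with 3.71, 3.79, 3.46, 3.31 and 3.51 in CIH 8W and 3.78, 3.55, 3.6, 3.44 and 3.94 in Nor 8W. The later groups were higher: Lep averaged 4.75 ± 0.84 in CIH 12W and 3.55 ± 0.19 in CIH 8W (adjusted p = 0.0569), and 4.54 ± 0.54 in Nor 12W and 3.66 ± 0.2 in Nor 8W (adjusted p = 0.38). Each Nor 12W array lay above each Nor 8W array, as for 0.802% of all probe sets. No fold is given because most of these signals carry no more than a bound. Lep was also the only gene of the 9 called in CIH 12W compared with CIH 8W+Nor 4W, where its means were 4.75 and 4.03 ± 0.36 (adjusted p = 0.687) and 2.43% of all probe sets were called as higher. That call was lost without any 1 of CIH 12W replicates 1, 2 and 4 or CIH 8W+Nor 4W replicates 3 and 4.

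Resistin, encoded by Retn, is an adipokine that in mice comes mainly from adipocytes and opposes insulin. Retn signals were 14.65, 14.95, 13.53 and 14.69 in CIH 12W, against 14.49, 14.07, 15.39, 14.47 and 16.02 in Nor 12W. Here 3 of the 4 CIH 12W arrays lay within the Nor 12W range, unlike the pattern in Pparg, Lipe and Aqp7. The means were 14.45 ± 0.63 and 14.89 ± 0.8, and the difference of -0.43 was not called (95% confidence interval -1.39 to 0.52).
Retn fell instead in CIH 8W+Nor 4W, with 14.08, 13.59, 14.38 and 13.6, compared with Nor 12W (-0.98, SE 0.46, adjusted p = 0.496, 1.97-fold lower). The difference was -0.69 without Nor 12W replicate 5, and the call was also lost without Nor 12W replicate 3 or CIH 8W+Nor 4W replicates 1, 2 or 4. At 8 weeks the arrays had 12.95, 13.67, 14.5, 13.98 and 14.77 in CIH 8W, against 15.54, 13.81, 14.16, 13.82 and 13.11 in Nor 8W. The lowest and the highest of these 10 arrays were CIH 8W replicate 1 and Nor 8W replicate 1, and the difference was -0.12.

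Pparg, the nuclear receptor that directs adipocyte differentiation, is at chr6:115360879-115490404. It had signals of 9.55, 9.8, 8.66 and 9.2 in CIH 12W, against 10.1, 10.3, 10.29, 10.74 and 12.08 in Nor 12W. No CIH 12W array reached the lowest Nor 12W array. The mean of 9.3 ± 0.5 in CIH 12W, against 10.7 ± 0.81 in Nor 12W, was 2.63-fold lower (log2 difference -1.4, SE 0.45, 95% confidence interval -2.33 to -0.47, adjusted p = 0.179). The call held without each array in turn, and the difference was -1.05 without Nor 12W replicate 5.
Pparg was also lower in mice returned to normoxia, with 10.28, 8.94, 9.83 and 9.38 in CIH 8W+Nor 4W, compared with Nor 12W (-1.09, SE 0.45, adjusted p = 0.404). Only CIH 8W+Nor 4W replicate 1 overlapped the Nor 12W arrays. Without Nor 12W replicate 5 the difference was -0.75, and the call was also lost without CIH 8W+Nor 4W replicates 2 or 4. At 8 weeks Pparg had 8.82, 9.45, 9.72, 10.96 and 10.86 in CIH 8W, against 10.29, 8.86, 9.59, 10.02 and 9.79 in Nor 8W. Replicates 4 and 5 of CIH 8W were above every Nor 8W array, and the other 3 were not. The difference of 0.25 had a 95% confidence interval of -0.63 to 1.13.

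Perilipin 1, encoded by Plin1 at chr7:79721164-79732904, coats the lipid droplet and keeps lipases from it until lipolysis is stimulated. Plin1 had 8.67, 9.65, 8.01 and 8.68 in CIH 12W, against 9.62, 9.23, 9.26, 9.61 and 11.58 in Nor 12W. CIH 12W replicate 2 exceeded 4 of the Nor 12W arrays, and the remaining 3 CIH 12W arrays were below all of them. The mean was 8.75 ± 0.67 in CIH 12W and 9.86 ± 0.98 in Nor 12W, 2.15-fold lower (-1.11, SE 0.47, 95% confidence interval -2.09 to -0.12, adjusted p = 0.35). Without Nor 12W replicate 5 the difference was -0.68, and the call was also lost without CIH 12W replicates 1, 3 or 4.
CIH 8W+Nor 4W arrays had 9.78, 8.42, 9.2 and 8.68. At 8 weeks Plin1 had 8.71, 7.88, 8.02, 9.74 and 9.14 in CIH 8W, against 9.56, 8.06, 8.73, 8.78 and 8.48 in Nor 8W. These groups overlapped and had nearly the same mean, 8.7 ± 0.78 in CIH 8W and 8.72 ± 0.55 in Nor 8W.

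Pnpla2, at chr7:141455188-141460743, encodes adipose triglyceride lipase, which removes the first fatty acid from triglyceride. It had 14.33, 14.45, 13.91 and 13.45 in CIH 12W, against 14.94, 14.74, 14.39, 14.8 and 15.9 in Nor 12W. The groups met at a single point, where CIH 12W replicate 2 was above Nor 12W replicate 3. Pnpla2 averaged 14.03 ± 0.45 in CIH 12W and 14.96 ± 0.56 in Nor 12W, 1.89-fold lower (-0.92, SE 0.33, 95% confidence interval -1.61 to -0.23, adjusted p = 0.254). The call was lost without CIH 12W replicate 4 (-0.73).
In CIH 8W+Nor 4W the signals were 14.95, 14.14, 14.74 and 14.39. At 8 weeks they were 14.43, 14.15, 14.32, 15.78 and 15.57 in CIH 8W, against 15.54, 14.79, 15.08, 15.36 and 15.12 in Nor 8W. In this gene 3 CIH 8W arrays were below, and the remaining 2 above, all Nor 8W arrays. The difference of -0.33 was not called (95% confidence interval -0.98 to 0.32).

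Lipe, at chr7:25379527-25398486, encodes hormone-sensitive lipase, which takes the second fatty acid. Its signals were 7.95, 8.49, 7.65 and 7.76 in CIH 12W, against 8.92, 8.7, 8.81, 8.86 and 10.56 in Nor 12W. The groups did not overlap, and 4 of the Nor 12W arrays lay within a narrow band below replicate 5. Lipe averaged 7.96 ± 0.38 in CIH 12W and 9.17 ± 0.78 in Nor 12W, 2.31-fold lower (-1.21, SE 0.39, 95% confidence interval -2.02 to -0.39, adjusted p = 0.185). The call held without each array in turn, with a difference of -0.86 without Nor 12W replicate 5.
CIH 8W+Nor 4W arrays had 8.89, 8.2, 8.64 and 8.22, between these groups on average (8.49 ± 0.34). At 8 weeks Lipe had 8.23, 7.79, 7.69, 9.6 and 9.09 in CIH 8W, against 9.12, 7.95, 8.48, 8.67 and 8.19 in Nor 8W. The 2 means were equal at 8.48, while the SD was 0.83 in CIH 8W and 0.45 in Nor 8W.

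Fabp4, at chr3:10204342-10208616, encodes the fatty acid binding protein of adipocytes, which macrophages and endothelial cells also make. Fabp4 had 15.58, 16.3, 15.4 and 15.59 in CIH 12W, against 16.4, 16.07, 17.09, 16.57 and 17.8 in Nor 12W. Only CIH 12W replicate 2 reached the Nor 12W range. The means were 15.72 ± 0.4 in CIH 12W and 16.79 ± 0.67 in Nor 12W, 2.1-fold lower (-1.07, SE 0.36, 95% confidence interval -1.82 to -0.31, adjusted p = 0.212), and the call held without each array in turn.
Compared with CIH 8W, with 15.63, 15.78, 16.75, 17.4 and 17.24, Fabp4 was 1.79-fold lower in CIH 12W (-0.84, SE 0.36, adjusted p = 0.323). This call was lost without any 1 of CIH 12W replicates 1, 3 and 4 or CIH 8W replicates 3, 4 and 5. Nor 8W arrays had 15.86 to 16.86 and CIH 8W+Nor 4W arrays 15.72 to 16.33. Macrophage markers rose in 5 of 6 genes in CIH 8W compared with Nor 8W, and endothelial markers in 2 of 6, where 3.99% of all probe sets were called as higher. Fabp4 differed there by 0.22 (95% confidence interval -0.49 to 0.93) and was not called. The part of these cells in its signal was not tested.

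Aquaglyceroporin 7, encoded by Aqp7 at chr4:41033074-41048237, lets glycerol leave the adipocyte. Aqp7 had 7.81, 7.93, 7.47 and 6.98 in CIH 12W, against 9.03, 8.86, 8.13, 9.31 and 10.58 in Nor 12W. It had the largest difference of the 9 genes, with no overlap of the groups. The mean was 7.55 ± 0.42 in CIH 12W and 9.18 ± 0.9 in Nor 12W, 3.11-fold lower (-1.63, SE 0.52, 95% confidence interval -2.73 to -0.54, adjusted p = 0.181). The call held without each array in turn, and the difference was -1.28 without Nor 12W replicate 5.
Aqp7 was also 2.4-fold lower in CIH 12W compared with CIH 8W, where the arrays had 8.33, 7.57, 8.13, 10.81 and 9.22 (-1.26, SE 0.52, adjusted p = 0.301). CIH 8W replicate 4 held the highest Aqp7 signal of all 23 arrays, and without it the difference was -0.76. The call was also lost without CIH 8W replicate 5 or CIH 12W replicate 4. Nor 8W arrays had 9.26, 7.73, 8.06, 8.83 and 8.58, and CIH 8W+Nor 4W arrays 8.84, 7.68, 8.13 and 8.09.

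**Figure D2:**
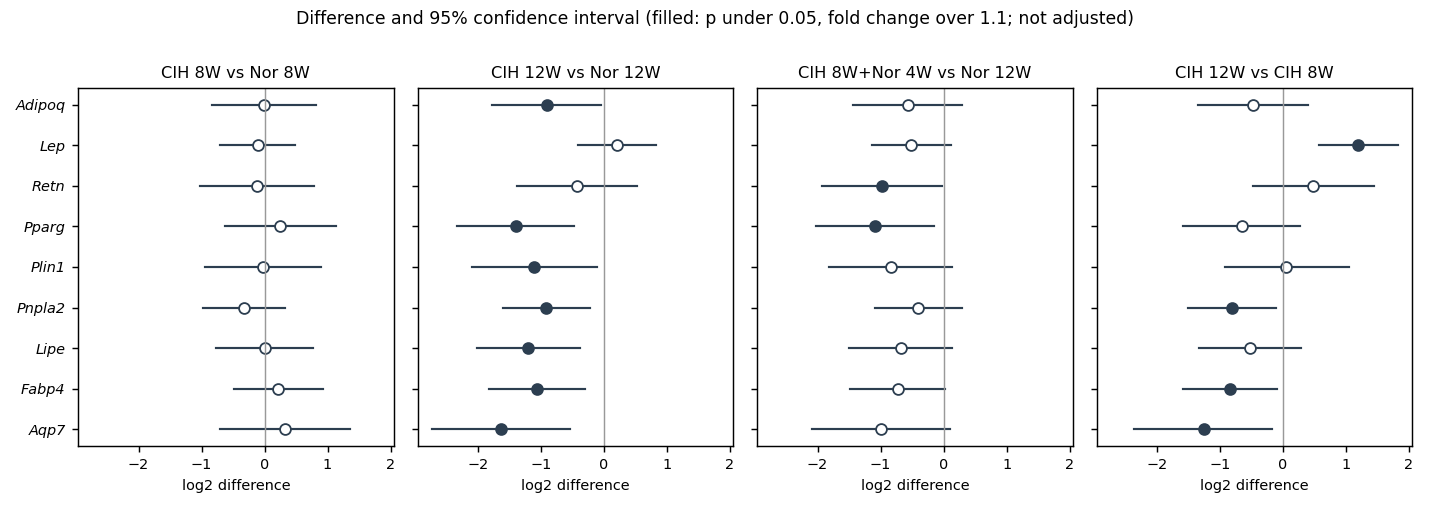
Log2 difference of each gene with its 95% confidence interval from limma in 4 comparisons; filled points passed p under 0.05 with a fold change over 1.1, without adjustment. The intervals of 7 genes lie below 0 in CIH 12W vs Nor 12W, and all 9 cross 0 in CIH 8W vs Nor 8W.

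Whether the CIH difference itself changed with the length of exposure was tested as the difference at 12 weeks minus that at 8 weeks, which uses 4 of the groups. Of the 9 genes, 4 were called, all lower, where 6.16% of all probe sets were called as lower. The values were -1.96 for Aqp7 (SE 0.72, adjusted p = 0.344), -1.65 for Pparg (SE 0.61, adjusted p = 0.35), -1.29 for Fabp4 (SE 0.5, adjusted p = 0.365) and -1.21 for Lipe (SE 0.54, adjusted p = 0.442). The 4 genes had differences of 0 to 0.32 at 8 weeks and of -1.07 to -1.63 at 12 weeks. The median over the 9 genes was -1.08, against -0.0261 over all probe sets. Adipoq (-0.9), Plin1 (-1.08), Pnpla2 (-0.59), Retn (-0.32) and Lep were not called. In the same contrast smooth muscle markers rose in 5 of 6 genes, endothelial markers fell in 4 of 6 and macrophage markers in 3 of 6, and their part in the result was not tested.

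After return to normoxia for the last 4 weeks, the CIH 8W+Nor 4W means of the 7 genes other than Lep and Retn lay between those of CIH 12W and Nor 12W. All 9 differences were below 0 in CIH 8W+Nor 4W compared with Nor 12W, with a median of -0.72 against -0.0015 over all probe sets, and 2 genes, Pparg and Retn, fell where 5.23% of all probe sets were called as lower. Aqp7 (-1, 95% confidence interval -2.09 to 0.1), Fabp4 (-0.72, -1.48 to 0.03), Plin1 (-0.84, -1.82 to 0.14) and Lipe (-0.68, -1.5 to 0.13) did not pass. CIH 12W compared with CIH 8W+Nor 4W gave differences of -0.27 to -0.64 for the 7 genes other than Lep and Retn, none called. The intervals there were wide: that of Aqp7 was -1.79 to 0.52 and that of Pnpla2 -1.25 to 0.21. These comparisons share arrays with CIH 12W vs Nor 12W, so they do not count as separate evidence.

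Longer time on the high-fat feed under normoxia, which cannot be told apart from greater age, went with higher signals in some of the genes. In Nor 12W compared with Nor 8W, 8 of the 9 differences were above 0, with a median of 0.69 against 0.0045 over all probe sets. Plin1 rose 2.2-fold (1.14, SE 0.44, adjusted p = 0.52) and Pparg 1.99-fold (0.99, SE 0.42, adjusted p = 0.558), and with Lep, near background, these made 3 genes called, where 4.21% of all probe sets were called as higher. Pnpla2 alone was below 0, at -0.22, not called. Both Plin1 and Pparg lost the call without Nor 12W replicate 5 (0.71 and 0.65) or without Nor 8W replicate 2 (0.97 and 0.78), while Lep kept it without Nor 12W replicate 5.
Under CIH the called differences other than that of Lep were lower in the later group. In CIH 12W compared with CIH 8W, 3 genes, Aqp7, Fabp4 and Pnpla2, fell, where 7.19% of all probe sets were called as lower, and Lep rose, where 5.21% were called as higher. Pnpla2 was 1.76-fold lower (-0.81, SE 0.33, adjusted p = 0.289), a call lost without any 1 of CIH 8W replicates 4 and 5 and CIH 12W replicates 3 and 4. Plin1 differed by 0.05, with a 95% confidence interval of -0.93 to 1.04. The median of the 9 genes was -0.52, against -0.0218 over all probe sets. These groups are also those in which 3 of 6 smooth muscle markers rose and 5 of 6 endothelial markers fell.

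Single arrays carried much of the spread. Nor 12W replicate 5 had the highest signal of all 23 arrays for 7 of the 9 genes and the second highest for Lep and Aqp7. CIH 12W replicate 3 was the lowest array for Adipoq, Pparg, Fabp4 and Lipe. CIH 8W replicates 4 and 5 ranked among the 5 highest arrays for Adipoq, Pparg, Fabp4, Lipe, Pnpla2 and Aqp7. From the lowest to the highest array the genes spanned 2.37 (Lep) to 3.83 (Aqp7) on the log2 scale. Without Nor 12W replicate 5, the 12-week comparison of CIH 12W with Nor 12W had 5 called genes: Pparg (-1.05), Lipe (-0.86), Aqp7 (-1.28), Fabp4 (-0.82) and Pnpla2 (-0.69). The fewest calls in that comparison, 4, came without CIH 12W replicate 4.

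Other tissue on the arrays also differed between the 12-week groups. Smooth muscle markers averaged 17.22 to 17.38 in CIH 12W and 16.24 to 17.19 in Nor 12W, so the groups did not overlap, and 2 of 6 rose. Endothelial markers fell in 2 of 6 genes, with list means of 10.9 to 11.31 in CIH 12W and 11.12 to 12.01 in Nor 12W, and macrophage markers in 0 of 6, with 12.3 to 12.66 and 12.55 to 13.31. Sympathetic neuron markers lay at 4.99 to 5.28 in CIH 12W and 5.02 to 11.68 in Nor 12W, with Th, Dbh, Snap25, Chrna3 and Prph at background on every CIH 12W array. The 2 red cell markers averaged 4.73 to 6.77 in CIH 12W and 5.02 to 10.24 in Nor 12W, the highest being replicate 5, and cardiomyocyte markers reached 11.83 in Nor 12W replicate 4 alone. The part of these in the adipocyte result was not tested. Without the 5 neuron-rich arrays, 6 of the 9 genes were called as lower in CIH 12W (adjusted p of 0.287 to 0.507). In that fit 3734 of 65956 probe sets were called as lower. Aqp7 stood at -1.95, Pparg at -1.52 and Lipe at -1.43, while Adipoq lost its call at -0.99.

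Most of the genes moved together from array to array. Pearson's r was computed for all 36 pairs of the 9 genes over the 23 arrays, with two-sided permutation p-values (100000 permutations, Benjamini-Hochberg adjusted over the 36 pairs). Among the 7 genes other than Lep and Retn the 21 pairs had r of 0.62 to 0.93 (median 0.85), Spearman's rho of 0.65 to 0.90 and adjusted p of 2.2e-05 to 0.0018. The strongest pairs were Adipoq with Lipe and Plin1 with Lipe, both at 0.93, and the weakest was Plin1 with Pnpla2. Leaving out the 2 arrays whose first gene lay farthest from its median gave r of 0.52 to 0.89. Between deviations from the group means r was 0.73 to 0.96, so the relation held within groups.
Retn followed less closely, with r of 0.30 to 0.70 and adjusted p of 0.00045 to 0.2 in its 7 pairs other than that with Lep. It was nearest to Adipoq (0.70) and farthest from Pnpla2 (0.30) and Aqp7 (0.33), and without 2 arrays its r ranged from -0.04 to 0.58. Lep was apart from all, with r of -0.32 to 0.49 in 8 pairs and its highest value with Retn (adjusted p = 0.024, rho 0.38, adjusted p = 0.094, r 0.32 without 2 arrays). The arrays share the composition of one tissue sample in all genes, and the smallest p these permutations can give is 1e-05.

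**Figure D3:**
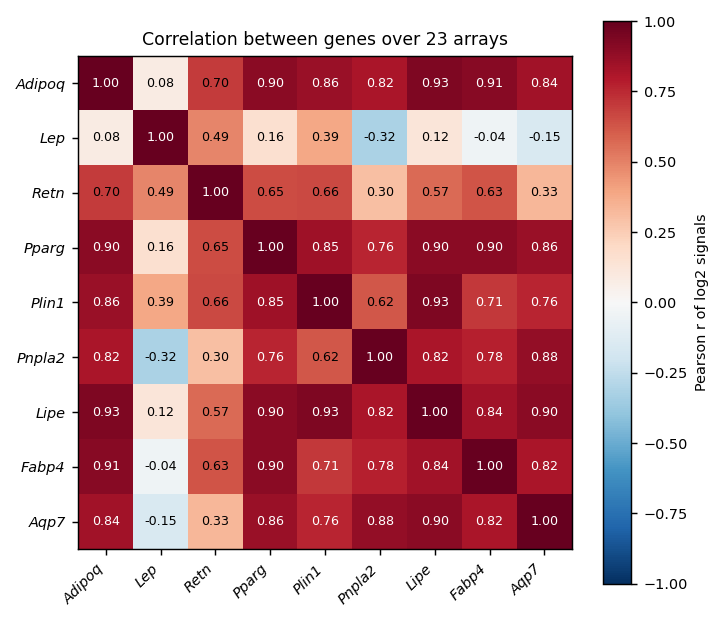
Pearson's r between the log2 signals of each pair of genes over the 23 arrays, coloured from -1 (blue) to 1 (red). The 21 pairs without Lep and Retn are at 0.62 to 0.93, Retn is paler, and the Lep row and column lie between -0.32 and 0.49.

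To describe the genes relative to one adipocyte transcript, the Adipoq signal of the same array was subtracted and each gene centred over the 23 arrays. Relative to Adipoq, Retn stood at 0.65 ± 0.34 in CIH 12W, -0.23 ± 0.23 in CIH 8W+Nor 4W and 0.17 ± 0.41 in Nor 12W, and at -0.31 ± 0.68 in CIH 8W and -0.21 ± 0.53 in Nor 8W. The arrays ranged from 0.3 to 1.08 in CIH 12W and from -0.4 to 0.11 in CIH 8W+Nor 4W. Aqp7 went the other way, at -0.48 ± 0.4 in CIH 12W and 0.25 ± 0.53 in Nor 12W. Plin1 differed by time, at -0.34 ± 0.45 in CIH 8W and -0.32 ± 0.16 in Nor 8W, against 0.2 ± 0.21 in CIH 12W, 0.13 ± 0.31 in CIH 8W+Nor 4W and 0.39 ± 0.32 in Nor 12W. Pnpla2 was highest relative to Adipoq in Nor 8W, at 0.4 ± 0.31, and between -0.25 and 0.08 in the other groups.
With the Adipoq signal as a covariate in limma, 2 of the other 8 genes stayed called in CIH 12W vs Nor 12W, Pparg (-0.51, adjusted p = 0.396) and Lipe (-0.41, adjusted p = 0.373). Aqp7 (-0.7), Fabp4 (-0.34), Pnpla2 (-0.29) and Plin1 (-0.17) did not. Adipoq is one of the genes described and was itself called as lower in this comparison (-0.91), so the covariate differed between the groups. Such a fit cannot tell the number of adipocytes from the RNA per adipocyte. In that comparison the fit called 4110 of 65955 probe sets as lower. Retn turned to 0.34 there, and was higher in CIH 12W than in CIH 8W+Nor 4W (0.83, adjusted p = 0.638) and than in CIH 8W (0.89, adjusted p = 0.231). Of all probe sets, 1615 and 3330 were called as higher in these comparisons, in that order. Against CIH 8W, Aqp7 (-0.77), Fabp4 (-0.46) and Pnpla2 (-0.48) were lower, as were 4434 probe sets. Plin1 (0.55) and Lep, near background, were higher there, with adjusted p of 0.0745 to 0.331 over these genes. In Nor 12W vs Nor 8W, Plin1 (0.71), Pparg (0.58) and Lipe (0.32) were higher, as was Lep, near background, and Pnpla2 (-0.51) was lower, with adjusted p of 0.247 to 0.576. Of all probe sets, 2925 were called there as higher and 2262 as lower. In CIH 8W vs Nor 8W none of the 8 was called.

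**Figure D4:**
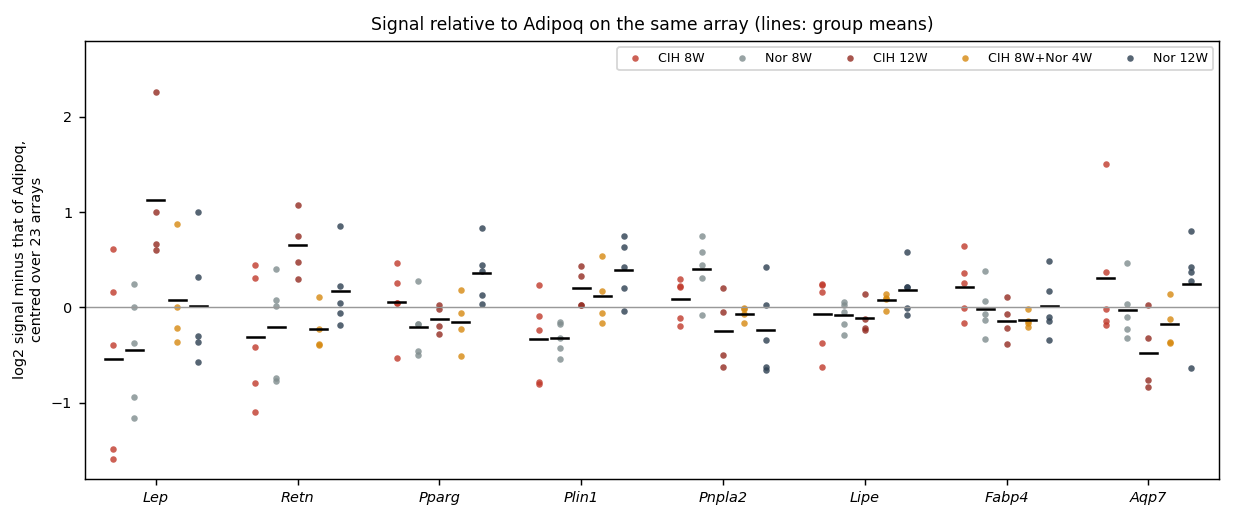
Log2 signal of each gene minus that of Adipoq on the same array, centred over the 23 arrays, with a point for each array and a line at each group mean. The mean of Retn is highest in CIH 12W and that of Pnpla2 in Nor 8W. Plin1 is below 0 on average in both 8-week groups and above 0 in the 12-week groups. Most Lep points rest on signals at background.

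The genes most like each of the 9 were sought by Pearson's r over the 23 arrays among 11310 genes above background on every array. Adipor2, a receptor for adiponectin, was among the nearest 3 of Adipoq (0.933), Pparg (0.94), Fabp4 (0.924) and Lipe (0.921). Fabp4 was nearest to Pde3b (0.95) and Scp2 (0.939), Pnpla2 to Adhfe1 (0.934), Cidec (0.917) and Slc36a2 (0.911), and Aqp7 to Etfa (0.938), Aifm2 (0.925) and Hibch (0.922). The remaining neighbours were Amy1 (0.925) and Cidec (0.919) for Adipoq, Cebpa (0.886) and Lpin1 (0.883) for Pparg, Hibch (0.933) and Dgat1 (0.931) for Lipe, and Rgcc (0.914), Ppp2r5a (0.91) and Csad (0.908) for Plin1. Retn and Lep had no neighbour over 0.9, and were nearest to Gstz1 (0.836), Tshr (0.81) and Car5b (0.798), and to Pik3r1 (0.762), Smarcc1 (0.761) and Me1 (0.759).

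Genes that act beside the 9 in adipocytes were described from lists. Of 99 listed partners 91 were measured. In CIH 12W compared with Nor 12W, 37 fell and 3 rose, where 6.99% of all probe sets were called as lower and 4.29% as higher. Of the partners, 2 passed an adjusted p under 0.05, as did 0.89% of all probe sets, and the median was -0.32. These shares apply to each list described in this comparison. In fatty acid uptake and esterification 10 of 14 fell (median -0.92), among them Gpihbp1, which anchors lipoprotein lipase to capillaries (-1.01, adjusted p = 0.0304), Agpat2 (-1.21), Gpd1 (-2.62) and Lpin1 (-0.93), enzymes of glycerolipid synthesis. Of 6 lipolysis genes 3 fell: Prkar2b, a regulatory subunit of protein kinase A (-2.37, adjusted p = 0.0489), Abhd5, the coactivator of the Pnpla2 lipase (-0.41), and Pde3b, which ends the cAMP signal (-0.89). The natriuretic peptide receptor gene Npr1 rose (0.79). In this list 1 gene of 6 passed the adjusted threshold.
Of 12 transcription factors 3 fell, led by Cebpa (-0.91), with means of 6.87 ± 0.48 in CIH 12W and 7.78 ± 0.69 in Nor 12W, and with Klf15 (-0.21) and Mlxipl, above background on 9 arrays. Of 11 lipid droplet proteins 4 fell, with Cidec at -1.15, Cidea at -2.53, Bscl2 at -0.26, and Plin5 at means of 4.92 in CIH 12W and 5.68 in Nor 12W. Among 12 other adipokines Nrg4 (-0.99) and Angptl4 (-0.82) fell and Rbp4 rose (0.49). Among 11 adipokine receptors Adipor2 fell (-0.98, adjusted p = 0.124), as did C5ar2, which no array showed above background, and the adiponectin-binding cadherin Cdh13 rose (0.44).

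**Figure D5:**
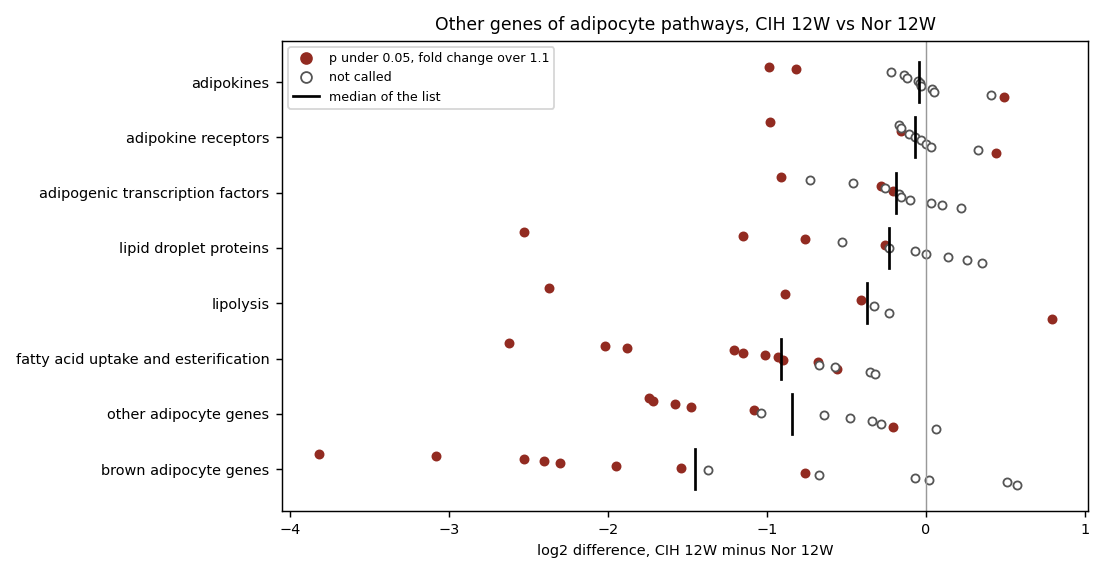
Log2 difference, CIH 12W minus Nor 12W, of the measured partner genes by list (points; filled where p was under 0.05 with a fold change over 1.1) with the median of each list as a bar. Fatty acid uptake and esterification, other adipocyte genes and brown adipocyte genes have medians of -0.92, -0.84 and -1.46, and the other 5 lists lie between -0.37 and -0.04.

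Brown adipocyte genes had the lowest median, -1.46, with 8 of 14 fallen, where 6.99% of all probe sets were called as lower. Prdm16 (0.57) and Dio2 (0.51) were instead above 0, not called, as was Zic1 (0.02), which no array showed above background. In CIH 8W+Nor 4W compared with Nor 12W, Prdm16 was called as higher (0.72, adjusted p = 0.429 in limma). Ucp1 signals were 9.94, 10.25, 13.61 and 7.48 in CIH 12W, against 14.38, 14.12, 10.32, 15.01 and 16.84 in Nor 12W. The groups overlapped through CIH 12W replicate 3 and Nor 12W replicate 3. The Ucp1 difference was -3.82 (SE 1.28, adjusted p = 0.208), and the signal averaged 10.32 ± 2.52 in CIH 12W, 14.12 ± 2.05 in CIH 8W+Nor 4W and 14.13 ± 2.38 in Nor 12W. Cox8b, a cytochrome oxidase subunit of brown fat and heart, had 5.68, 6.19, 5.97 and 5.29 in CIH 12W, against 8.23, 8.19, 6.61, 8.45 and 9.43 in Nor 12W, with no overlap (-2.4, adjusted p = 0.0777). CIH 12W replicate 3, the array lowest for 4 of the 9 genes, held the highest Ucp1 of its group.
Of 12 other adipocyte genes 6 fell, among them Lgals12 (-1.72), Gys2 (-1.48) and Thrsp (-1.58). Thrsp, which supports fatty acid synthesis, averaged 13.01 ± 1.06 in CIH 12W, 12.58 ± 0.54 in CIH 8W+Nor 4W and 14.59 ± 0.3 in Nor 12W. Pnpla3, a lipid droplet enzyme related to Pnpla2 and made in liver and fat, rose with time under normoxia: it had 6.6, 6.79, 6.36, 6.22 and 8 in Nor 12W, against 4.3, 4.46, 4.83, 4.4 and 4.63 in Nor 8W, none above background in Nor 8W (adjusted p = 0.00809). CIH 8W+Nor 4W arrays had 4.86, 4.57, 4.92 and 4.43, all below the Nor 12W arrays (adjusted p = 0.0129), and CIH 12W arrays 5.13, 6.48, 4.68 and 6.59, compared with 4.09 to 4.48 in CIH 8W (adjusted p = 0.0381). Pnpla3 was above background on no CIH 8W array, on 2 of 4 CIH 8W+Nor 4W arrays and on 3 of 4 CIH 12W arrays. Pnpla2 differed by -0.22 in Nor 12W vs Nor 8W, as given above.
At 8 weeks the partner genes gave 8 rises and 2 falls in CIH 8W compared with Nor 8W, where 3.99% of all probe sets were called as higher and 2.47% as lower. The rises were in C3ar1 (1.82), Fabp5 (1.62), Lcn2 (1.43), Plin2 (1.03), Cd36 (0.83), Metrnl (0.4), Nr1h3 (0.34) and Cebpb (0.27), in the comparison in which 5 of 6 macrophage markers rose (median 1.2), and their part was not tested. Thrsp (-1.02) and Rbp4 (-0.55) fell, and none of the 14 brown adipocyte genes was called.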

How the data were processed

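Aortic total RNA of 23 ApoE-/- mouse samples was measured on Affymetrix Clariom D arrays. The authors deposited 1 table of log2 signals for 72688 probe sets, of which 6732 controls were left out here and 65956 were tested. Affymetrix Expression Console stands in the submitters' processing notes, without a version, while the study's methods name Transcriptome Analysis Console for the normalization. These methods also name limma and its moderated F-statistic, with p under 0.05 and a fold change over 1.1 as thresholds. The method that summarised the probes, the background correction, and the RNA extraction or scan batches are not given in the sources used here, so fold changes hold on the deposited scale (values 1.87 to 19.9), and the number of arrays limits the precision. No other column of sample values was present or left out.

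The log2 values were used as deposited. Probe sets were named from the platform annotation: 30638 had 1 symbol, 2176 several and 33142 none, and a gene was read from its brightest probe set with that symbol alone, by the mean over the 23 arrays. A linear model with 1 mean for each of the 5 groups was fitted to all 65956 probe sets with limma 3.58.1 in R 4.3.3, and each comparison was a contrast of it, with empirical Bayes moderation and Benjamini-Hochberg adjustment over all probe sets. Correlations used Python 3.11.15 with NumPy 2.4.6, SciPy 1.17.1 and pandas 2.3.3, and plots Matplotlib 3.10.9. The fits were tested on simulated data.

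Named beside the 9 genes are up to 4 genes of each partner list with the smallest p in a described comparison, Ucp1 and Cox8b, and the 3 genes nearest to each by correlation. The 8 partner genes that rose in CIH 8W compared with Nor 8W are named beyond that rule, chosen after their values were seen. The genes and lists were chosen with earlier results of these data known. Cfd and other listed genes with no probe set of their symbol alone were not analysed here. Promoter sequences are from RefSeq, GRCm38.p6; 9 of the 10 genes had an entry. Alternatives were a fit of the compared groups alone, other scalings, a filter on dim probe sets, weighted arrays, moderation with a trend and robust variances, a fold change over 1.5, a moderated F-test, the replicate number as a block, the mean of a gene's probe sets, leaving out arrays, and Adipoq as a covariate.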

Additional observations from a re-analysis of the deposited data

Results flagged for a closer look

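In 45 groups of 4 or 5 arrays (9 genes in 5 groups), 2 groups had an array set apart from the rest by most of the group's range, where chance alone gives about 1 in 20. In both it was Nor 12W replicate 5: Plin1 had a signal of 11.58 there, with the nearest Nor 12W array at 9.62, a gap of 0.834 of the range, and Lipe had 10.56, with the nearest at 8.92, a gap of 0.879 of the range. Without this array Plin1 differed by -0.68 and Lipe by -0.86 in CIH 12W compared with Nor 12W, and only Lipe was still called.

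The CIH difference at 12 weeks minus that at 8 weeks passed limma p under 0.05 in 4 genes. It was -1.65 for Pparg, -1.29 for Fabp4, -1.21 for Lipe and -1.96 for Aqp7 on the log2 scale, with adjusted p of 0.344 to 0.442, so none passed an adjusted threshold. Lipe lost the call without any 1 of 8 arrays, among them Nor 12W replicate 5 (-0.86), and Pparg, Fabp4 and Aqp7 kept it without each array in turn. Without the 5 arrays rich in sympathetic neuron markers, Aqp7 (-2.25) and Lipe (-1.49) kept the call, and Pparg (-1.53) and Fabp4 (-0.92) lost it. In that fit 2066 of 65956 probe sets were called as lower.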

How the results depend on the processing

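The 9 genes gave 0 calls in CIH 8W against Nor 8W, 7 in CIH 12W against Nor 12W, 1 in CIH 12W against CIH 8W+Nor 4W, 2 in CIH 8W+Nor 4W against Nor 12W, 3 in Nor 12W against Nor 8W, 4 in CIH 12W against CIH 8W and 4 in the difference between the CIH effects at 12 and 8 weeks. In the same order, 2631, 2829, 1606, 2728, 2779, 3437 and 2817 of 65956 probe sets were called as higher. Those called as lower were 1626, 4612, 2569, 3449, 2053, 4741 and 4061. Leaving out 1 array at a time gave 0 to 0, 4 to 7, 0 to 1, 0 to 4, 1 to 5, 1 to 5 and 3 to 5 calls among the 9 genes, in that order. CIH 12W against Nor 12W had 4 without CIH 12W replicate 4, where 2066 of all probe sets were called as higher and 3085 as lower. CIH 8W+Nor 4W against Nor 12W had 0 without Nor 12W replicate 5 or CIH 8W+Nor 4W replicate 4, 1 without CIH 8W+Nor 4W replicate 2 and 4 without Nor 12W replicate 1. Over all probe sets these fits called 2786, 2365, 2420 and 2953 as higher and 3449, 3254, 3593 and 3828 as lower, in that order. Nor 12W against Nor 8W had 1 of the 9 genes called without Nor 12W replicate 5 or Nor 8W replicate 2 and 5 without Nor 8W replicate 1. The probe sets called there were 2632, 2424 and 2343 as higher and 2013, 1815 and 1680 as lower. CIH 12W against CIH 8W had 1 of the 9 genes called without CIH 8W replicate 4 or 5 or CIH 12W replicate 4, and 2 when CIH 12W replicate 3 was left out. The probe sets called there were 3602, 3301, 2760 and 3026 as higher and 5085, 4414, 3560 and 3939 as lower. Differences not called changed sign when single arrays were left out: in CIH 8W against Nor 8W Adipoq ranged from -0.24 to 0.22, Plin1 from -0.28 to 0.19, Retn from -0.36 to 0.25, Lipe from -0.28 to 0.2 and Aqp7 from -0.18 to 0.63, in CIH 12W against CIH 8W Plin1 from -0.24 to 0.32, and in CIH 12W against Nor 12W Lep from -0.11 to 0.57.

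Fitting the compared groups alone gave 2 calls in CIH 12W against CIH 8W+Nor 4W, 4 in CIH 8W+Nor 4W against Nor 12W and 1 in CIH 12W against CIH 8W. Quantile normalization gave 1 in CIH 8W+Nor 4W against Nor 12W and 2 in CIH 12W against CIH 8W, and turned Lipe in CIH 8W against Nor 8W to -0.07. Leaving out dim probe sets, which removed Lep, or weighting the arrays gave 0 in CIH 12W against CIH 8W+Nor 4W. The moderated F-test over the 5 groups, which gives each gene 1 p for all comparisons, gave 2 in CIH 8W against Nor 8W, 3 in CIH 12W against Nor 12W and 3 in CIH 12W against CIH 8W+Nor 4W. Those in CIH 12W against Nor 12W were Pparg and Pnpla2, lower, and Lep, higher and near background, so 5 of the 7 falls were lost. By this test Aqp7 and Fabp4 also lost the call in CIH 12W against CIH 8W, Plin1 in Nor 12W against Nor 8W, and Retn in CIH 8W+Nor 4W against Nor 12W. Without the 5 arrays rich in sympathetic neuron markers there were 0 in CIH 12W against CIH 8W+Nor 4W, 1 in CIH 8W+Nor 4W against Nor 12W, 2 in CIH 12W against CIH 8W and 2 in the difference of the effects. Adipoq as a covariate gave 2 of the other 8 genes in CIH 12W against Nor 12W, 2 in CIH 12W against CIH 8W+Nor 4W, 1 in CIH 8W+Nor 4W against Nor 12W and 5 in Nor 12W against Nor 8W. Of all probe sets, 3009 were called as higher and 4110 as lower, 1615 and 2600, 2935 and 3419, and 2925 and 2262, in that order. Sign changes among differences that were not called were Adipoq 0.07 and Plin1 0.12 in CIH 8W against Nor 8W and Plin1 -0.01 in CIH 12W against CIH 8W with array weights; Plin1 0.06 and Fabp4 -0.12 in CIH 8W against Nor 8W, Plin1 -0.02 in CIH 12W against CIH 8W and Retn 0.13 in the difference of the effects without the neuron-rich arrays; and Retn 0.34 in CIH 12W against Nor 12W, Pparg 0.03 and Plin1 0.08 in CIH 12W against CIH 8W+Nor 4W, and Retn 0.44 and Pnpla2 0.04 in the difference of the effects with the covariate. The causes were not tested.

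Arrays of the same replicate number deviated together little more than others. Their median r was 0.0244 over 43 pairs (-0.318 to 0.633), against -0.0161 over pairs of other numbers (-0.523 to 0.446). The ranges overlapped widely, and the numbers were not taken to pair the samples. With the replicate number as a block the counts among the 9 genes were 0, 6, 1, 1, 3, 3 and 3 in the order above. That fit called 2691, 3301, 1756, 2869, 2906, 3505 and 2958 of all probe sets as higher. As lower it called 1758, 4951, 2596, 3663, 2222, 4675 and 3995, in the same order. Signal over background limits Lep, and 4 or 5 arrays a group limit the rest.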
